A study of Mus musculus and Homo sapiens with 43 samples.

Results

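Mouse embryonic stem cells (ESC) that carried a knock-out of Phc1 were compared with ESC that carried a knock-out of only the SAM domain of Phc1. The comparison used 4 of the 43 samples of the series, 2 RNA-seq libraries for each knock-out. Both lines were made with CRISPR/Cas9 in E14, a male mouse ESC line, and both were grown in serum medium with 0.003 µg/mL LIF, 1 µM of the MEK inhibitor PD0325901 and 3 µM of the GSK3 inhibitor CHIR99021. The series also holds WT and Pcgf2 KO cells, and both Phc1 genotypes after differentiation to neural progenitor cells (NPC) with 5 µM retinoic acid. The study differentiated several lines per genotype and sequenced duplicates, but the labels do not say whether the 2 libraries of a group are separate lines or cultures, nor which exons were deleted. The p values therefore describe variation among these libraries, which may be technical. Values were TPM, each transcript's share of a library corrected for length, taken as log2(TPM + 1). Tested with limma were the 14388 of 32231 genes that reached 1 TPM in 2 or more of the 4 ESC libraries, and differences are given as Phc1 KO minus Phc1-SAM KO. A gene could pass through the 2 libraries of 1 group alone, which favours differences toward the group where it is high. A gene was called at a Benjamini-Hochberg adjusted p below 0.05. On this scale a difference understates the fold change of a gene with few TPM. WT ESC levels came from a separate table of the same study and are given as levels, with no test.

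Phc1 is a polyhomeotic subunit of canonical Polycomb repressive complex 1 (PRC1), which compacts chromatin marked by trimethylated H3K27 and deposits ubiquitin on histone H2A through Ring1 or Rnf2. Its SAM domain binds the SAM domains of other Phc molecules head to tail, and this polymerization gathers PRC1 into clusters and brings distant Polycomb-bound genes together. In ESC the genes held this way include the Hox clusters and many transcription factors of later lineages.

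The targeted gene was first read in every library. Phc1, on chromosome 6 (chr6:122317731-122340227, GRCm38.p6), had 150.2 and 151 TPM in the libraries labelled Phc1 KO, 266 and 247 TPM in Phc1-SAM KO and 232 and 202 TPM in WT. The Phc1 KO libraries were the lowest of the 3 groups (log2 difference -0.76, SE 0.05, adjusted p = 4.08e-05), but their transcript level was far from 0. A gene-level TPM does not show whether the remaining transcripts lack the deleted part, so these values do not check the knock-out itself, and the Phc1-SAM KO label was not checked by them either. In NPC the libraries with the same genotype labels had 109 and 106 TPM and 103 and 111 TPM, a log2 difference of 0.01.

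The ESC label was checked against its defining markers. Pou5f1, the pluripotency factor Oct4, had 1131 and 1154 TPM in Phc1 KO, 1812 and 1794 TPM in Phc1-SAM KO and 1480.4 and 1610.5 TPM in WT. Nanog had 356 and 354 TPM, 537 and 527 TPM and 461 and 444 TPM in the same order, and all of Sox2, Zfp42, Esrrb and Klf4 lay above 90 TPM in these 6 libraries. Markers of another cell type were also present: the fibroblast and feeder markers described below summed to 2898 and 2983 TPM in Phc1 KO, 880.5 and 850.1 TPM in Phc1-SAM KO, and 542.3 and 484.9 TPM in WT. The libraries within a group correlated across genes at r = 0.986 for Phc1 KO and 0.990 for Phc1-SAM KO, against 0.946 to 0.949 between the groups and 0.988 between the same genotypes in NPC. At least 1 TPM was reached by 14350 and 14371 genes in Phc1 KO and by 13469 and 13512 genes in Phc1-SAM KO. In bulk RNA, a different share of cells of some type and a different amount of RNA per cell cannot be told apart, and this holds for every result below.

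Of the 14388 genes, 6948 were called (48.3%), 4882 higher in Phc1 KO (33.9%) and 2066 lower (14.4%). The large differences lay almost all on one side: of 1416 genes called at 2-fold or more (9.84%), 1361 were higher in Phc1 KO and 55 were lower, and 123 genes were higher by at least 3 on the log2 scale. The libraries of the groups did not overlap for 10648 genes (74.0%). With 2 libraries per group, many genes show no overlap through the random order of their values alone. The median difference over all genes was 0.14 with TPM as deposited. The balance of small differences depended on scaling: 70.3% of calls were higher in Phc1 KO as deposited, 43.3% after median-of-ratios scaling (all-gene median -0.06), 41.6% after quantile normalization (-0.09), and 98.6% when the libraries were scaled to the core pluripotency genes (0.58). That last scaling called 77.5% of all genes higher and 1.06% lower. At 2-fold the excess on the higher side remained under each of these, with 1111 higher and 128 lower, 917 and 241, and 3027 and 25. Differences below about 0.5 are therefore read against these medians.

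**Figure D1:**
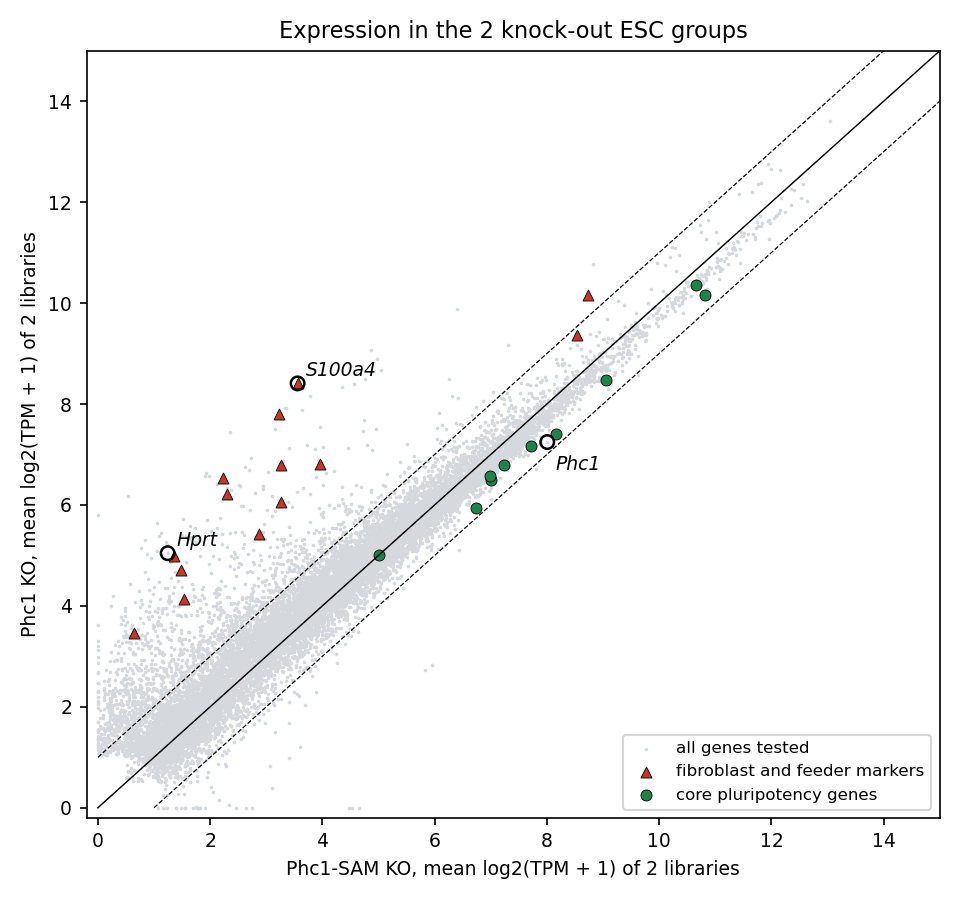
Mean log2(TPM + 1) of the 2 Phc1 KO libraries against that of the 2 Phc1-SAM KO libraries for all genes tested, with the line of equality and dashed lines at 2-fold. The 14 fibroblast and feeder markers and Hprt lie above equality, while 9 of 10 core pluripotency genes and Phc1 lie below it with TPM as deposited.

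The largest differences lay on the higher side. By a rule that takes the 15 largest called differences in each direction among genes with at least 5 TPM in 1 group, the higher genes in Phc1 KO were Prl2c2, S100a4, Tm4sf1, Csf1, Bgn, Ptx3, Col1a1, Ptn, Col6a3, Serpinf1, Timp2, Ifi27, Col1a2, Cav1 and Il1rl1, with 4 predicted genes or pseudogenes passed over. Their log2 differences ran from 4.29 to 5.10. Prl2c2, a proliferin, has near-identical neighbours in its family, so its share of their reads is uncertain, and the same holds for Ifi27 and, among the lower genes below, Pramel6.

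S100a4, a calcium-binding protein also called fibroblast-specific protein, had 329 and 349 TPM in Phc1 KO, 11.0 and 10.6 TPM in Phc1-SAM KO and 0.246 and 0 TPM in WT (log2 difference 4.85, SE 0.09, adjusted p = 3.31e-07). Col1a1, a chain of type I collagen, had 216 and 229 TPM in Phc1 KO, 8.32 and 8.47 TPM in Phc1-SAM KO and 0.475 and 0.616 TPM in WT (log2 difference 4.57, SE 0.13, adjusted p = 1.48e-06). The Phc1 KO libraries stood far above all others for both genes, and the Phc1-SAM KO libraries stood between them and WT. Csf1, the growth factor of macrophages, had 89.3 and 98.8 TPM in Phc1 KO, 2.83 and 3.10 TPM in Phc1-SAM KO and 0.0216 and 0.204 TPM in WT (log2 difference 4.58, SE 0.13, adjusted p = 1.29e-06). For Timp2, an inhibitor of matrix metalloproteinases, the values were 179 and 181 TPM in Phc1 KO, 7.36 and 8.45 TPM in Phc1-SAM KO and 0.457 and 0.565 TPM in WT (log2 difference 4.35, SE 0.10, adjusted p = 5.2e-07). Cav1, the scaffold of caveolae, was listed at 0 in both WT libraries and had 76.4 and 92.9 TPM in Phc1 KO and 3.42 and 3.28 TPM in Phc1-SAM KO (log2 difference 4.29, SE 0.12, adjusted p = 1.55e-06). The order Phc1 KO, Phc1-SAM KO, WT thus held without overlap for each of these genes. Its first part, Phc1 KO above Phc1-SAM KO, was required by the naming rule. Of the 1338 genes higher at 2-fold with a WT level, both Phc1-SAM KO libraries exceeded both WT libraries for 727. This count was not made over all genes and compares values of 2 separate tables. It therefore does not extend the order to the larger set.

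The fibroblast and feeder list covers collagens, matrix proteins and contractile proteins of mesenchymal cells. All 14 of its tested members were called higher in Phc1 KO, with a median of 3.04 against 0.14 over all genes, and with each library left out in turn. The count was also 14 with a median of 2.89, 2.73 and 3.48 under median-of-ratios, quantile and core pluripotency scaling. At least 1 TPM was reached by 14 members in Phc1 KO, 13 in Phc1-SAM KO and 5 in WT, and the one member not tested, the matrix proteoglycan Lum, was listed at 0 in both Phc1 KO libraries. Lox, which cross-links collagen, had 70.6 and 75.9 TPM in Phc1 KO, 3.96 and 3.89 TPM in Phc1-SAM KO and 0 and 0.0205 TPM in WT (log2 difference 3.91, SE 0.11, adjusted p = 1.39e-06). The smallest differences were those of the 2 members with the highest WT levels, the intermediate filament Vim, at 1.43, and the matrix protein Fn1, at 0.83. For the 9 members under 1 TPM in WT, the TPM ratio of Phc1 KO to Phc1-SAM KO lay between 8.85 and 31.4, with a median of 18.7.

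**Figure D2:**
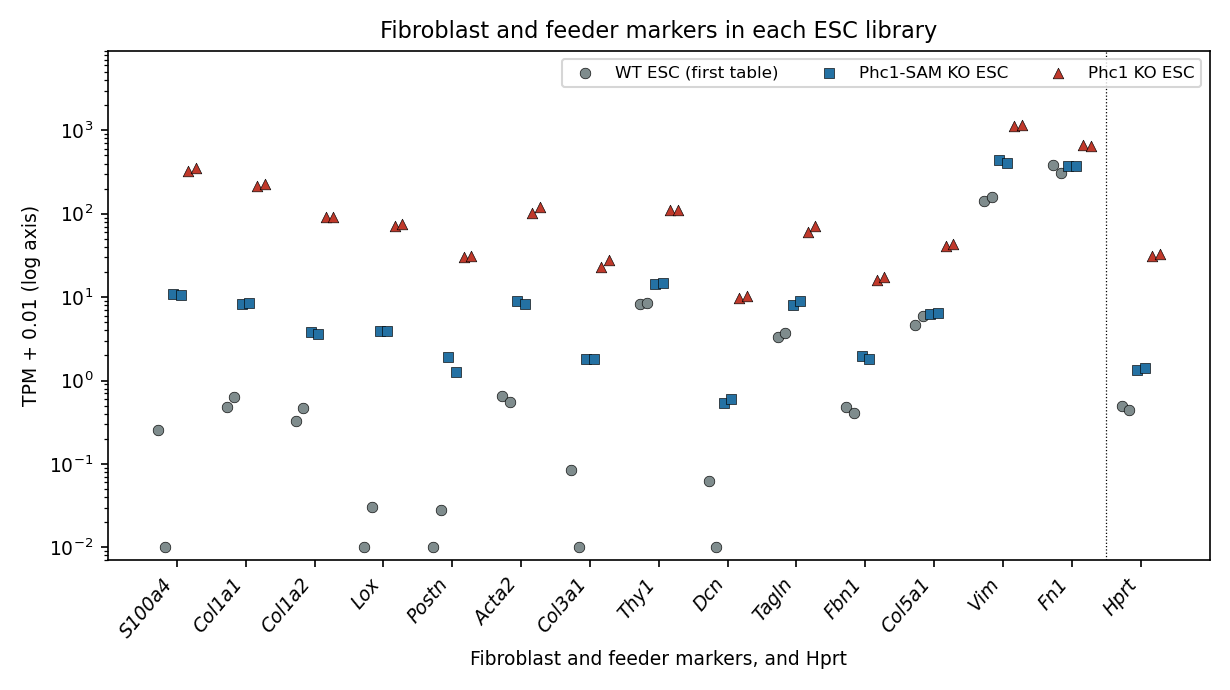
TPM + 0.01 on a log axis for the 14 tested fibroblast and feeder markers and for Hprt, 1 point for each of the 2 WT, 2 Phc1-SAM KO and 2 Phc1 KO ESC libraries. Both Phc1 KO libraries lie above both Phc1-SAM KO libraries for every gene shown, and the WT values come from a separate table.

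Hprt, a purine salvage enzyme on the X chromosome (chrX:52988078-53021660, GRCm38.p6), moved with these markers; it was chosen after its values were seen. It had 31.2 and 32.8 TPM in Phc1 KO, 1.33 and 1.41 TPM in Phc1-SAM KO and 0.483 and 0.434 TPM in WT (log2 difference 3.80, SE 0.15, adjusted p = 4.54e-06). As background, several widely used sublines of E14 were selected for loss of Hprt function, and the labels do not name the subline. In NPC it stayed at 0.596 and 0.248 TPM in Phc1 KO and 0.947 and 0.791 TPM in Phc1-SAM KO. The part of other cells or of another clone in the Hprt and fibroblast marker values was not tested.

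Promoter windows of the strongly higher genes held fewer CG dinucleotides at the median, which is given as a description. In RefSeq windows (GRCm38.p6) from 250 bases before to 50 bases after the start, available for 10245 of the tested genes, the median number of CG dinucleotides was 21 over all genes. It was 18 in the 984 windows of genes higher at 2-fold, 10 in the 81 of genes higher by at least 3 on the log2 scale, and 13.5 in the 20 of genes lower at 2-fold. The pattern TGANTCA, the AP-1 site with any base allowed in the middle, reads the same on both strands. It was found in 4.84% of all windows and 7.93% of those higher at 2-fold. In those higher by at least 3 the share was 12.3% (10 of 81), and in those lower at 2-fold 5.0% (1 of 20). A match describes the letters in the window, and no test was made. The windows below, with each CG in capitals, were picked by hand and do not stand for their classes. S100a4 and Col6a3, 2 of the 15 higher genes, hold 2 and 3 CG. Both lie below the lower quartile of 4 in the genes higher by at least 3 on the log2 scale. Timp2, another of the 15, holds 25. Crmp1, one of the lower genes, holds 41, above the upper quartile of 22.75 in the genes lower at 2-fold. The windows lie at chr3:90603520-90603819 (plus strand, S100a4), chr1:90843922-90844221 (minus strand, Col6a3), chr11:118355362-118355661 (minus strand, Timp2) and chr5:37241808-37242107 (plus strand, Crmp1, the first of 2 windows listed).
S100a4: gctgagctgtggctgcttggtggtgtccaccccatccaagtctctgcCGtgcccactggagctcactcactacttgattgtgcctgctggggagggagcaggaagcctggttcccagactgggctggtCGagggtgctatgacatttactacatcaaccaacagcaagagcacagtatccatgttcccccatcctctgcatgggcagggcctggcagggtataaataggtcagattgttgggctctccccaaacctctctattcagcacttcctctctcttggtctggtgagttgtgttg
Col6a3: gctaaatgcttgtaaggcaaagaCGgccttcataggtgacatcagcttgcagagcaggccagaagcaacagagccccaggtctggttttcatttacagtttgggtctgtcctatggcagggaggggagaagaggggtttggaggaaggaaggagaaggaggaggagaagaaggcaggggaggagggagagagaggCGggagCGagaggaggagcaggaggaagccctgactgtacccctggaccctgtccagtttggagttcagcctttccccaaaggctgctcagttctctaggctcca
Timp2: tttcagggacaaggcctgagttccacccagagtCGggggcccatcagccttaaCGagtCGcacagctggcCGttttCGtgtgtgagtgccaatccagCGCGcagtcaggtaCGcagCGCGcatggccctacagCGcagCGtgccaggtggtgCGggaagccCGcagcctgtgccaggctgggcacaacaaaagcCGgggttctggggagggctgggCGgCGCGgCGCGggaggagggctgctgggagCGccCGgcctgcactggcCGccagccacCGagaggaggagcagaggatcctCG
Crmp1: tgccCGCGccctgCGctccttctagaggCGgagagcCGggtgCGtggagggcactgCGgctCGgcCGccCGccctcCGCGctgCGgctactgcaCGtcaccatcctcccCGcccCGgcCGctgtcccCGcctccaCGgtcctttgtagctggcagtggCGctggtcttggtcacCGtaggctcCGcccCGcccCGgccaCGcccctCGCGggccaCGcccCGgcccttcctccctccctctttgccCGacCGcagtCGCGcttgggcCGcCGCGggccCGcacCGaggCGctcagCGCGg
The low CG count was thus not shared by all of the genes with the largest differences.

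The lower genes were few and their differences were smaller. The 14 named here were Hist1h3h, Pramel6, Sfmbt2, Nhej1, Tgm3, Nkx2-9, Hist1h2bk, Crmp1, Eras, Nrcam, Hoxa9, Dmrtb1, Hist1h2ag and Rpl10l, from -2.39 to -1.09, with 7 predicted genes or pseudogenes passed over. Sfmbt2, a Polycomb protein with a SAM domain of its own, had 6.4 and 6.16 TPM in Phc1 KO, 17.6 and 18.5 TPM in Phc1-SAM KO and 5.82 and 4.52 TPM in WT (log2 difference -1.39, SE 0.06, adjusted p = 5.12e-06). For Sfmbt2 the Phc1 KO libraries lay just above WT and the Phc1-SAM KO libraries stood apart. Crmp1, a cytosolic protein of growing axons, had 8.23 and 8.61 TPM in Phc1 KO, 20.7 and 19.9 TPM in Phc1-SAM KO and 20.9 and 19.3 TPM in WT (log2 difference -1.18, SE 0.10, adjusted p = 0.000127), so here the Phc1-SAM KO libraries were the ones near WT. Eras, a Ras protein of ESC, had 12.2 and 8.56 TPM in Phc1 KO, 24.9 and 22.6 TPM in Phc1-SAM KO and 13.4 and 13.5 TPM in WT (log2 difference -1.14, SE 0.16, adjusted p = 0.00106). With core pluripotency scaling these 3 differences were -0.93, -0.71 and -0.66, all still past the threshold.

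Rpl10l, a retrocopy of the ribosomal protein gene Rpl10 used in germ cells, had 103 and 105 TPM in Phc1 KO against 218 and 227 TPM in Phc1-SAM KO and 199 and 223 TPM in WT, and its reads may be shared with its parent gene. Nkx2-9, a homeobox factor of the ventral neural tube, had 4.21 and 6.16 TPM against 12.7 and 13.5 TPM, with 0.927 and 1.06 TPM in WT. The calls of 5 of the 14 were lost when single libraries were left out, with fewer libraries in the test. Hist1h2bk, Hist1h2ag and Nrcam missed the threshold whichever of the 4 ESC libraries was left out, with adjusted p of 0.0757 to 0.0935, 0.0612 to 0.119 and 0.0505 to 0.0732. Their differences stayed between -1.242 and -1.152, -1.245 and -0.968, and -1.204 and -1.054. Hist1h3h missed it without Phc1-SAM KO replicate 1 or 2 (0.0731 and 0.0988), and Nhej1 without Phc1 KO replicate 1 or Phc1-SAM KO replicate 1 (0.0833 and 0.0738). Hist1h3h had 4.36 and 0 TPM in the 2 Phc1 KO libraries, and its difference was -3.60 without Phc1 KO replicate 1 and -1.18 without Phc1 KO replicate 2. With core pluripotency scaling, Hist1h2bk (-0.77, adjusted p = 0.0717), Hist1h2ag (-0.70, 0.0822) and Nhej1 (-0.84, 0.0501) missed the threshold. The histone genes also have near-identical copies, so counts can be split between them.

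The other subunits of PRC1 were examined next, beginning with the paralogues of Phc1. Phc2, another polyhomeotic protein with a SAM domain, had 30.7 and 31.2 TPM in Phc1 KO, 17.6 and 17.5 TPM in Phc1-SAM KO and 17.4 and 19.1 TPM in WT (log2 difference 0.78, SE 0.05, adjusted p = 2.26e-05), so that the Phc1 KO libraries stood above both other groups. Phc3, the third paralogue, had 8.74 and 10.9 TPM in Phc1 KO, 6.57 and 6.34 TPM in Phc1-SAM KO and 3.71 and 3.19 TPM in WT (log2 difference 0.53, SE 0.13, adjusted p = 0.0126). This call was lost with median-of-ratios scaling (adjusted p = 0.0666), quantile normalization (0.475), without Phc1 KO replicate 2 (0.0613) and without Phc1-SAM KO replicate 2 (0.0581). Bmi1, also called Pcgf4 and the alternative to Pcgf2 in canonical PRC1, had 29.6 and 28 TPM in Phc1 KO, 17.1 and 14.7 TPM in Phc1-SAM KO and 11.3 and 8.29 TPM in WT (log2 difference 0.83, SE 0.11, adjusted p = 0.00093). Pcgf2 itself, the Pcgf subunit that predominates in ESC, had 89.2 and 89.8 TPM against 89.8 and 94.4 TPM (log2 difference -0.04, adjusted p = 0.436), which did not pass the threshold as deposited. With median-of-ratios scaling its difference was -0.27 and with core pluripotency scaling 0.46, both called, so no direction is given for Pcgf2.

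Of the catalytic subunits, Rnf2 had 54.2 and 63.0 TPM against 74.8 and 83.0 TPM (log2 difference -0.42, SE 0.08, adjusted p = 0.00473), lower in Phc1 KO as deposited and 0.07 with core pluripotency scaling. Ring1 had 12.9 and 17.2 TPM against 11.6 and 13.0 TPM (log2 difference 0.26, adjusted p = 0.186). Leaving out Phc1 KO replicate 1 gave Ring1 a difference of 0.45 at adjusted p = 0.0453, and core pluripotency scaling gave 0.73. Over all 35 PRC1 subunits, 9 were higher and 9 lower, with a median of -0.01. Under core pluripotency scaling these counts became 29 and 1, so no direction holds for the complex as a whole. Among 10 tested Polycomb proteins with a SAM domain, 3 were higher, namely Phc2, Phc3 and Scmh1, and 2 lower, namely Phc1 and Sfmbt2, against 7 and 2 with core pluripotency scaling and 2 and 3 with median-of-ratios scaling. Scmh1, a Scm-family partner of the Phc proteins, had 21.7 and 22.4 TPM in Phc1 KO, 11.5 and 9.94 TPM in Phc1-SAM KO and 6.99 and 8.04 TPM in WT (log2 difference 0.98, SE 0.09, adjusted p = 0.000212).

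Members of PRC2, which writes the H3K27 mark that canonical PRC1 reads, were called higher for 2 and lower for 5 of 13, with a median of -0.13, but higher for 11 and lower for 0 with core pluripotency scaling. Only 1 was higher without Phc1 KO replicate 2 or Phc1-SAM KO replicate 1. Epop, an accessory subunit abundant in ESC, had 239 and 237 TPM in Phc1 KO, 351 and 348 TPM in Phc1-SAM KO and 236 and 246 TPM in WT (log2 difference -0.55, SE 0.03, adjusted p = 1.87e-05). Its difference with core pluripotency scaling was -0.05. CTCF and cohesin genes, which form chromatin loops, had 3 higher and 4 lower of 17 (median 0.01), against 0 and 8 with median-of-ratios and 13 and 0 with core pluripotency scaling. The higher count was 1 without Phc1 KO replicate 2 and 2 without any other ESC library. Ctcf had 134 and 133 TPM in Phc1 KO, 167 and 174 TPM in Phc1-SAM KO and 102 and 91.7 TPM in WT, a difference of -0.35 as deposited that was 0.15 with core pluripotency scaling. DNA methylation genes had 3 higher and 7 lower of 11 (median -0.19), and core pluripotency scaling left 7 higher and 0 lower. Dnmt3l, the cofactor of de novo methylation, had 163 and 163 TPM in Phc1 KO, 234 and 237 TPM in Phc1-SAM KO and 315 and 308 TPM in WT (log2 difference -0.53, SE 0.04, adjusted p = 4.08e-05), against -0.03 with core pluripotency scaling. For these chromatin lists the size of the differences was thus close to the shift between scalings.

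Hox genes, the classic Polycomb targets, were divided by position in their clusters. Of 10 tested genes of paralogue groups 1 to 5, 5 were called higher in Phc1 KO and 0 lower (median 0.34), while quantile normalization gave 4 higher and 2 lower, and leaving out Phc1 KO replicate 2 gave 1 lower. Hoxa3 had 11.8 and 9.37 TPM in Phc1 KO, 2.48 and 2.63 TPM in Phc1-SAM KO and 0.617 and 0.528 TPM in WT (log2 difference 1.70, SE 0.11, adjusted p = 3.38e-05). Hoxa2 had 2.91 and 3.25 TPM in Phc1 KO, 0.352 and 0.327 TPM in Phc1-SAM KO and 0.233 and 0.110 TPM in WT (log2 difference 1.60, SE 0.15, adjusted p = 0.000167). Both lie at the anterior end of the HoxA cluster, and their Phc1 KO libraries exceeded all others. Hoxb2, at the same end of HoxB, had 2.93 and 2.18 TPM in Phc1 KO, 0.436 and 0.360 TPM in Phc1-SAM KO and 0.0280 and 0.0713 TPM in WT (log2 difference 1.34, SE 0.12, adjusted p = 0.000138). Hoxa2 and Hoxb2 passed the filter of 1 TPM through Phc1 KO alone, so the filter itself favours their higher calls. A mean of 1 TPM was reached by 11 members of this anterior list in Phc1 KO and 7 in Phc1-SAM KO.

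Further along HoxA the order of the knock-outs was the other way round. Hoxa9 (chr6:52223097-52227370, GRCm38.p6) had 2.41 and 2.28 TPM in Phc1 KO, 7.48 and 5.26 TPM in Phc1-SAM KO and 0.219 and 0.195 TPM in WT (log2 difference -1.12, SE 0.14, adjusted p = 0.000628). Hoxa10 had 2.83 and 3.62 TPM in Phc1 KO, 7.27 and 8.08 TPM in Phc1-SAM KO and 0.338 and 0.430 TPM in WT (log2 difference -1.04, SE 0.11, adjusted p = 0.000295). Hoxa11 had 1.12 and 0.583 TPM in Phc1 KO, 3.10 and 3.72 TPM in Phc1-SAM KO and 0.196 and 0.187 TPM in WT (log2 difference -1.27, SE 0.20, adjusted p = 0.00186). For these 3 genes the Phc1-SAM KO libraries were highest, the Phc1 KO libraries intermediate and WT lowest, without overlap. The same order held at the end of HoxD, where Hoxd13 had 4.52 and 4.67 TPM in Phc1 KO, 9.17 and 8.13 TPM in Phc1-SAM KO and 0.610 and 0.744 TPM in WT (log2 difference -0.78, SE 0.13, adjusted p = 0.00254). It also held for Hoxd11, with 2.39 and 2.57 TPM, 6.04 and 4.54 TPM and 0.104 and 0.248 TPM. With core pluripotency scaling, the differences of Hoxa9, Hoxa10, Hoxa11, Hoxd11 and Hoxd13 were -0.73, -0.63, -0.96, -0.45 and -0.35, each still past the threshold.

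The posterior list, groups 6 to 13 with Evx1 and Evx2, had 10 of 22 tested members lower in Phc1 KO and 5 higher (median -0.34), 16 lower and 1 higher with quantile normalization, and 5 lower and 6 higher with core pluripotency scaling. The higher count was 3 without Phc1 KO replicate 2 or Phc1-SAM KO replicate 2. Hoxb6, the largest on the higher side, had 1.76 and 2.06 TPM in Phc1 KO, 0 and 0.285 TPM in Phc1-SAM KO and 0 and 0.0495 TPM in WT (log2 difference 1.36, SE 0.18, adjusted p = 0.000818). Hoxc6 was higher at 6.80 and 5.09 TPM against 3.23 and 3.22 TPM (log2 difference 0.70, SE 0.14, adjusted p = 0.00571; adjusted p = 0.153 with quantile normalization). With TPM as deposited, every called HoxB gene was thus higher in Phc1 KO, and every called HoxA and HoxD gene of groups 9 to 13 was lower. Hoxb6, like Hoxb2 above, passed the filter of 1 TPM through Phc1 KO alone. For such genes a higher call is favoured by the filter, which limits the reading of the HoxB side. Hoxb8 and Hoxb9 missed the threshold with quantile normalization and Hoxd9 with core pluripotency scaling. Several HoxA to HoxD genes beyond those of the naming rule were chosen after their values were seen. All Hox levels were low, at most 24.1 TPM for Hoxa7 in these ESC.

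**Figure D3:**
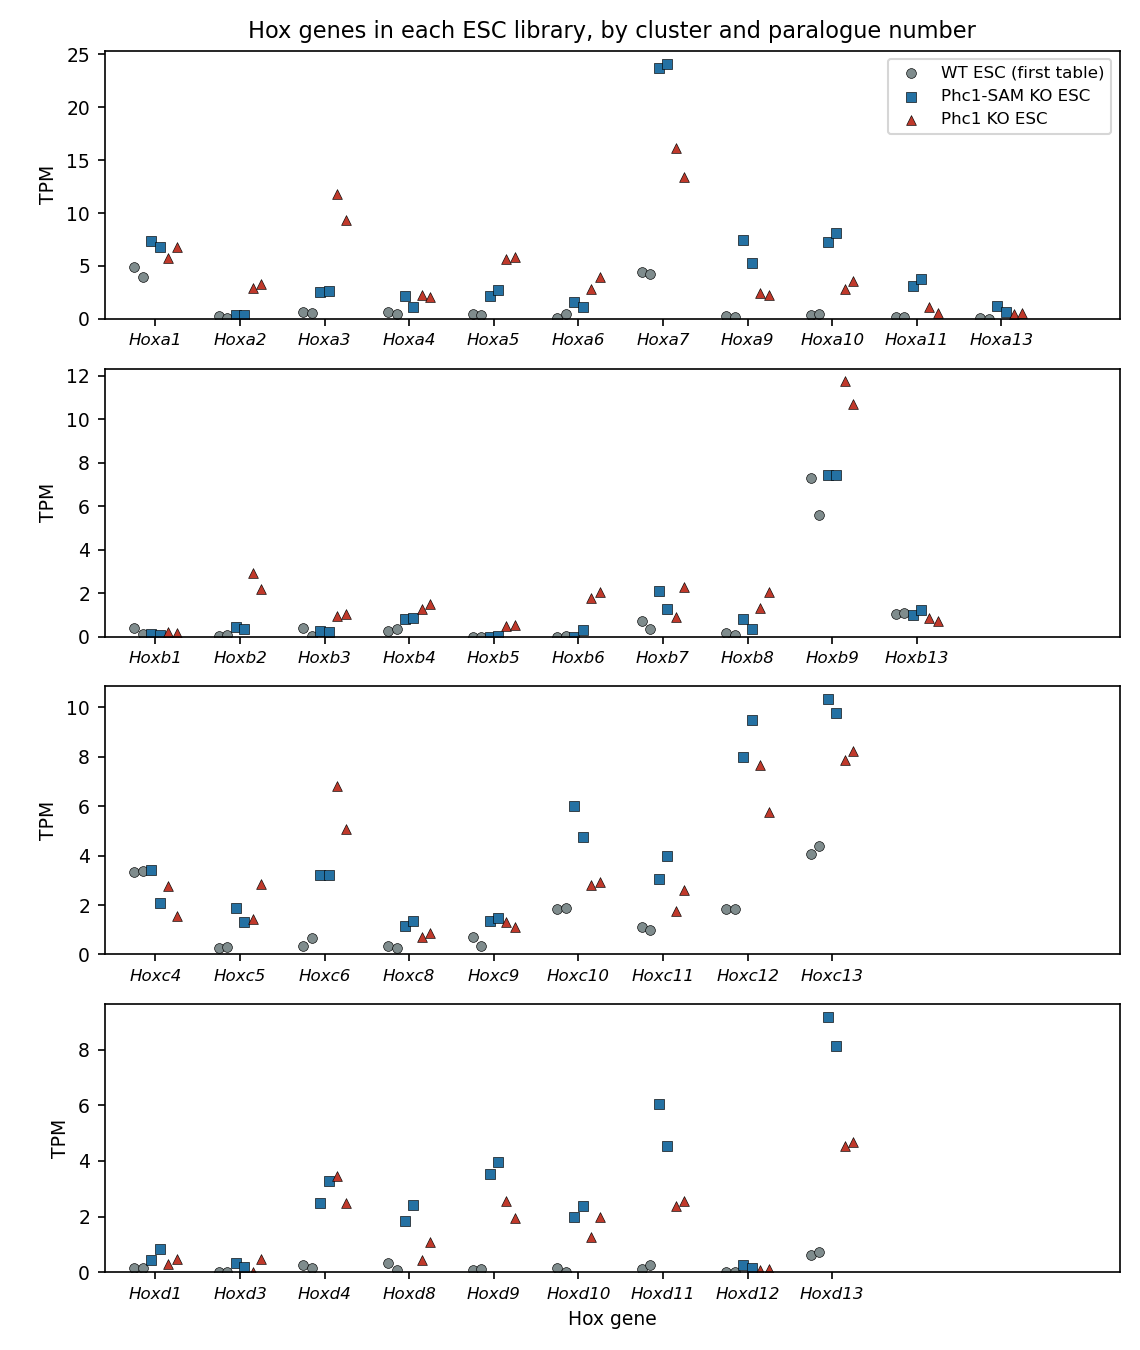
TPM of the Hox genes in each ESC library, 1 panel for each cluster from HoxA to HoxD and ordered by paralogue number, with 2 points for each group. Phc1 KO lies highest for Hoxa2, Hoxa3 and Hoxb2, and Phc1-SAM KO lies highest for Hoxa9 to Hoxa11, Hoxd11 and Hoxd13.

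The list of other Polycomb-target transcription factors held 76 members, of which 36 passed the filter of 1 TPM. Of these, 17 were called higher and 4 lower (median 0.52), where all genes tested had 33.9% higher and 14.4% lower. A mean of 1 TPM was reached by 33 members in Phc1 KO and 28 in Phc1-SAM KO. Some members, such as Sox9 below, passed through Phc1 KO alone, so the filter itself adds to the higher count. Between 16 and 22 were higher under the 3 other scalings, with 10 lower under median-of-ratios scaling and 11 under quantile normalization. Leaving out Phc1 KO replicate 1 gave 7 lower. Dlx2, a homeobox factor of forebrain and neural crest, had 13.7 and 15.2 TPM in Phc1 KO, 1.21 and 0.999 TPM in Phc1-SAM KO and 0.0721 and 0.115 TPM in WT (log2 difference 2.88, SE 0.17, adjusted p = 2.46e-05). Gata2, a factor of blood and trophoblast, had 33.8 and 39.6 TPM in Phc1 KO, 6.78 and 3.75 TPM in Phc1-SAM KO and 2.14 and 2.04 TPM in WT (log2 difference 2.63, SE 0.21, adjusted p = 8.16e-05). Sox9, a factor of cartilage and neural crest, had 6.69 and 6.43 TPM in Phc1 KO, 0.410 and 0.265 TPM in Phc1-SAM KO and 0.0943 and 0.0568 TPM in WT (log2 difference 2.5, SE 0.09, adjusted p = 3.78e-06). The Phc1 KO libraries were well above both other groups for all 3 genes. These factors moved with the fibroblast and feeder markers, whose summed levels are given above, and the part of those cells was not tested.

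Lineage markers are read against the 70.3% of all calls that lay on the higher side, and the 33.9% higher and 14.4% lower of all genes. Endoderm genes had 7 of 13 higher and 0 lower (median 0.70), and 7 and 3 with quantile normalization. Pdgfra, a receptor shared by primitive endoderm and mesenchyme, had 13.8 and 16.0 TPM in Phc1 KO, 0.428 and 0.973 TPM in Phc1-SAM KO and 0.358 and 0.256 TPM in WT (log2 difference 3.24, SE 0.17, adjusted p = 1.55e-05). Fst, which binds activin, had 36.4 and 41.8 TPM against 7.5 and 8.91 TPM (log2 difference 2.12, SE 0.12, adjusted p = 1.89e-05). Primitive streak and mesoderm genes had 7 of 12 higher and 2 lower (median 0.38), and 5 and 3 with quantile normalization. Without Phc1 KO replicate 2 or Phc1-SAM KO replicate 1, 1 was lower. Snai1, a repressor of epithelial genes, had 23.2 and 25.5 TPM in Phc1 KO, 4.97 and 5.70 TPM in Phc1-SAM KO and 8.17 and 8.09 TPM in WT (log2 difference 2.00, SE 0.09, adjusted p = 8.04e-06). In the blood and endothelium list 2 of 7 were higher and 0 lower (median -0.14; 1 higher and 2 lower with quantile normalization, 1 lower without Phc1 KO replicate 1), led by Cd34 with 32.6 and 36.4 TPM in Phc1 KO, 4.67 and 5.39 TPM in Phc1-SAM KO and 2.65 and 3.18 TPM in WT. Pdgfra, Snai1 and Cd34 are also expressed by fibroblasts, so these lists are not independent of the fibroblast markers.

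In the neural progenitor list 5 of 14 were higher and 2 lower, with a median of -0.08. As deposited, these counts lie close to the 33.9% higher and 14.4% lower of all genes. Quantile normalization gave 5 higher and 7 lower, and core pluripotency scaling 8 and 1. Nr2f1, an orphan nuclear receptor, had 8.88 and 5.72 TPM against 1.37 and 1.08 TPM (log2 difference 1.88, SE 0.18, adjusted p = 0.000198). The neuron list had 1 higher and 6 lower of 14 (median -0.31; 3 higher and 2 lower with core pluripotency scaling). Nefl, the light neurofilament, had 2.64 and 2.77 TPM in Phc1 KO, 6.06 and 6.02 TPM in Phc1-SAM KO and 2.28 and 2.45 TPM in WT (log2 difference -0.93, SE 0.13, adjusted p = 0.00101). Neurod1, a proneural factor, had 2.01 and 1.77 TPM in Phc1 KO, 4.15 and 4.40 TPM in Phc1-SAM KO and 0.714 and 0.620 TPM in WT (log2 difference -0.87, SE 0.14, adjusted p = 0.00232). For both genes the Phc1-SAM KO libraries were the highest of the 3 groups. Trophectoderm genes had 3 higher and 4 lower of 12 (median -0.06; 8 higher and 0 lower with core pluripotency scaling).

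Pluripotency genes were lower in Phc1 KO with TPM as deposited. Of 10 core genes, 9 were called lower and 0 higher (median -0.53), and all 10 were lower under median-of-ratios scaling as well as quantile normalization. Scaling to the list itself, which evens out its mean level by construction, left 2 higher and 4 lower. Dppa2, a chromatin regulator of the early embryo, had 57.9 and 62.6 TPM in Phc1 KO, 105 and 106 TPM in Phc1-SAM KO and 89.0 and 87.7 TPM in WT (log2 difference -0.80, SE 0.05, adjusted p = 2.49e-05). Utf1, which limits Polycomb loading at bivalent genes, had 169 and 167 TPM in Phc1 KO, 292 and 279 TPM in Phc1-SAM KO and 210.0 and 233 TPM in WT (log2 difference -0.76, SE 0.04, adjusted p = 2.33e-05). Pou5f1 had a log2 difference of -0.66 (SE 0.03, adjusted p = 4.09e-06) and Nanog of -0.58 (SE 0.03, adjusted p = 9.34e-06). Zfp281, a zinc finger partner of Nanog, was the exception, with 33.0 and 29.8 TPM against 32.1 and 30.6 TPM. The summed core list was 3467 and 3539 TPM in Phc1 KO, 4972 and 5000 TPM in Phc1-SAM KO, and 4618 and 4601 TPM in WT, so the Phc1 KO libraries were the lowest.

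Naive genes had 14 lower and 3 higher of 26 (median -0.19; 2 lower and 17 higher with core pluripotency scaling). Nr0b1, the nuclear receptor Dax1, had 43.4 and 42 TPM in Phc1 KO, 77.8 and 75.5 TPM in Phc1-SAM KO and 54.9 and 59.4 TPM in WT (log2 difference -0.83, SE 0.06, adjusted p = 5.71e-05; -0.33 with core pluripotency scaling). Formative and primed genes had 8 lower and 1 higher of 16 (median -0.33; 1 lower and 4 higher with core pluripotency scaling), with 3 lower without Phc1-SAM KO replicate 2 and 6 without any other ESC library. The higher one was Cdh2, N-cadherin, which mesenchymal cells also express, with 15.4 and 15.8 TPM in Phc1 KO, 4.38 and 4.33 TPM in Phc1-SAM KO and 2.62 and 2.27 TPM in WT (log2 difference 1.63, SE 0.07, adjusted p = 4.67e-06). Sox3, a SoxB1 factor of epiblast and neural plate, had 3.29 and 3.04 TPM in Phc1 KO, 7.27 and 7.06 TPM in Phc1-SAM KO and 6.73 and 7.24 TPM in WT (log2 difference -0.97, SE 0.10, adjusted p = 0.000274).

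**Figure D4:**
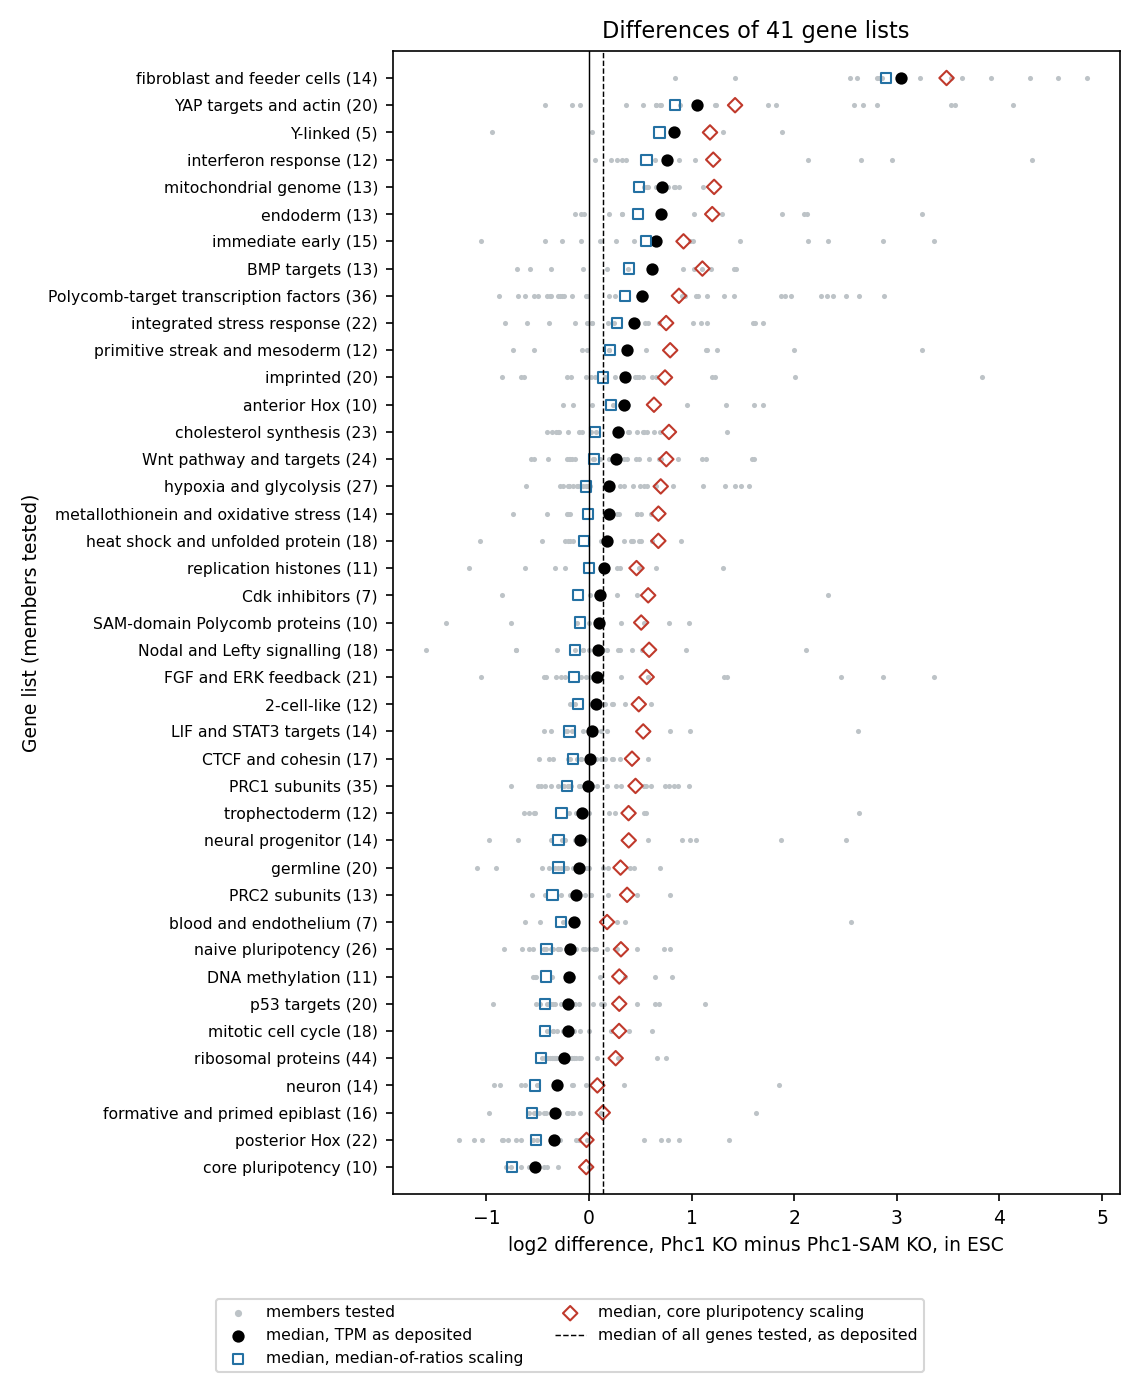
Log2 differences of the tested members of 41 gene lists, with the list medians for TPM as deposited, after median-of-ratios scaling and after core pluripotency scaling. The fibroblast and feeder list stands apart at a median of 3.04 as deposited, and 23 of the 41 medians change sign among these 3 scalings.

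Signalling lists were led by a few genes with large differences. Their counts are read against the 33.9% higher and 14.4% lower of all genes tested. YAP targets and actin genes had 17 of 20 higher and 2 lower (median 1.06, and 0.81 to 1.42 under the other scalings). Axl, a receptor tyrosine kinase, had 97.2 and 117 TPM in Phc1 KO, 6.31 and 4.19 TPM in Phc1-SAM KO and 2.04 and 2.00 TPM in WT (log2 difference 4.13, SE 0.17, adjusted p = 4.67e-06). Ankrd1, a direct YAP target, had 20.3 and 17.3 TPM in Phc1 KO, 0.769 and 0.566 TPM in Phc1-SAM KO and 0.210 and 0.0816 TPM in WT (log2 difference 3.57, SE 0.15, adjusted p = 5.57e-06). Immediate early genes had 10 of 15 higher and 3 lower (median 0.66). Fosl1, a subunit of AP-1, had 32.3 and 37.8 TPM in Phc1 KO, 4.22 and 3.64 TPM in Phc1-SAM KO and 0.0271 and 0.724 TPM in WT (log2 difference 2.87, SE 0.30, adjusted p = 0.000279). Ier3, a survival factor induced by ERK, had 75.7 and 81.6 TPM in Phc1 KO, 7.65 and 5.89 TPM in Phc1-SAM KO and 4.16 and 4.87 TPM in WT (log2 difference 3.37, SE 0.13, adjusted p = 4.09e-06). Interferon response genes had 9 of 12 higher and 0 lower (median 0.76). B2m, the light chain of MHC class I, had 202 and 209 TPM in Phc1 KO, 23.2 and 28.3 TPM in Phc1-SAM KO and 18.9 and 21.6 TPM in WT (log2 difference 2.95, SE 0.10, adjusted p = 2.32e-06). H2-K1, a heavy chain, had 103 and 82.7 TPM in Phc1 KO, 14.2 and 13.5 TPM in Phc1-SAM KO and 32.9 and 29.0 TPM in WT (log2 difference 2.65, SE 0.10, adjusted p = 4.22e-06). The Phc1-SAM KO libraries lay slightly above WT for B2m and below WT for H2-K1, while Phc1 KO lay far above WT for both. Cultured fibroblasts express YAP targets, AP-1 and MHC class I, and the part of such cells was not tested.

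BMP targets had 8 of 13 higher and 3 lower (median 0.61, positive under the other scalings as well). Id1, an inhibitor of bHLH factors, had 101 and 97.7 TPM in Phc1 KO, 43.9 and 42.3 TPM in Phc1-SAM KO and 21.2 and 24.1 TPM in WT (log2 difference 1.19, SE 0.04, adjusted p = 3.88e-06). Wnt genes had 13 of 24 higher and 3 lower (median 0.27; 5 higher and 9 lower with quantile normalization). The receptor Fzd2 had 7.59 and 6.83 TPM against 1.94 and 1.54 TPM (log2 difference 1.59, SE 0.10, adjusted p = 2.89e-05). FGF and ERK genes had 7 of 21 higher and 3 lower (median 0.07, and 6 and 8 with quantile normalization). As deposited, these counts lie close to the 33.9% higher and 14.4% lower of all genes. Dusp4, a phosphatase that restrains ERK, had 17.7 and 16.7 TPM in Phc1 KO, 2.23 and 2.42 TPM in Phc1-SAM KO and 0.792 and 0.703 TPM in WT (log2 difference 2.45, SE 0.08, adjusted p = 2.33e-06). LIF and STAT3 genes had 3 of 14 higher and 4 lower (median 0.03; 13 higher and 0 lower with core pluripotency scaling; 2 lower without Phc1-SAM KO replicate 1 or 2). Osmr, the oncostatin M receptor, had 6.08 and 6.93 TPM against 0.213 and 0.222 TPM (log2 difference 2.62, SE 0.17, adjusted p = 3.83e-05). Nodal and Lefty genes had 5 of 18 higher and 4 lower (median 0.09; 2 and 8 with median-of-ratios scaling; 3 higher without Phc1-SAM KO replicate 2). Furin, which cleaves the Nodal precursor, had 25.5 and 20.8 TPM against 5.16 and 3.97 TPM (log2 difference 2.12, SE 0.14, adjusted p = 3.38e-05).

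Stress and metabolic lists were mixed, beside 33.9% higher and 14.4% lower over all genes tested. Integrated stress response genes had 12 of 22 higher and 4 lower (median 0.44; 9 and 7 with median-of-ratios scaling). Ddit3, the factor CHOP, had 40.6 and 44.6 TPM in Phc1 KO, 11.0 and 16.4 TPM in Phc1-SAM KO and 8.51 and 9.18 TPM in WT (log2 difference 1.59, SE 0.17, adjusted p = 0.000354). Hypoxia and glycolysis genes had 14 of 27 higher and 7 lower (median 0.20; 9 higher and 11 lower with median-of-ratios scaling). Vegfa, the endothelial growth factor, had 23.4 and 26.8 TPM against 7.98 and 7.75 TPM (log2 difference 1.56, SE 0.08, adjusted p = 1.34e-05). Heat shock and unfolded protein genes had 9 of 18 higher and 5 lower (median 0.18; 6 and 6 with median-of-ratios scaling; 3 lower without Phc1 KO replicate 1 or Phc1-SAM KO replicate 2). Hspb1, a small heat shock protein, had 378 and 379 TPM in Phc1 KO, 792 and 789.7 TPM in Phc1-SAM KO and 694 and 758 TPM in WT (log2 difference -1.06, SE 0.03, adjusted p = 9.53e-07) and was lower under all scalings. p53 targets had 5 of 20 higher and 11 lower (median -0.20; 13 higher and 1 lower with core pluripotency scaling). Cholesterol synthesis genes had 12 of 23 higher and 4 lower (median 0.28; 6 and 9 with median-of-ratios scaling), and metallothionein and oxidative stress genes 7 of 14 higher and 5 lower (median 0.19; 2 and 5 with median-of-ratios scaling). The latter had 4 higher without Phc1 KO replicate 2 and 5 without any other ESC library.

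Growth-related lists followed the scaling. Over all genes tested, 33.9% were higher and 14.4% lower as deposited. Ribosomal protein genes had 38 of 44 lower and 3 higher (median -0.24), against 42 higher and 0 lower with core pluripotency scaling. Mitotic genes had 13 of 18 lower and 3 higher (median -0.21), against 18 higher with core pluripotency scaling, and 8 lower without Phc1-SAM KO replicate 2. Among Cdk inhibitors 2 of 7 were higher and 1 lower (2 and 2 with median-of-ratios scaling). Cdkn2c, an inhibitor of Cdk4 and Cdk6, had 10.4 and 10.5 TPM in Phc1 KO, 1.52 and 1.06 TPM in Phc1-SAM KO and 0.578 and 0.249 TPM in WT (log2 difference 2.33, SE 0.16, adjusted p = 4.77e-05). Cdkn1c, an imprinted inhibitor, had 3.15 and 3.21 TPM in Phc1 KO, 6.05 and 7.04 TPM in Phc1-SAM KO and 17.4 and 16.8 TPM in WT (log2 difference -0.85, SE 0.08, adjusted p = 0.000186). Replication histones had 1 of 11 higher and 1 lower (median 0.14; 1 and 3 with quantile normalization; 2 higher without Phc1 KO replicate 1). Transcripts of the mitochondrial genome were higher for 12 of 13 genes (median 0.72, and 11 to 13 genes under the other scalings), and made up 5.71% and 5.16% of TPM in Phc1 KO against 3.39% and 3.35% in Phc1-SAM KO. Their count was 10 or 11 when single libraries were left out, and their summed level in WT, 93090.0 and 87590.0 TPM, was above that of both knock-outs, at 55770.0 and 50340.0 TPM in Phc1 KO and 33170.0 and 32770.0 TPM in Phc1-SAM KO.

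Imprinted genes had 11 of 20 higher and 4 lower (median 0.35, and 8 and 6 with quantile normalization). The shares over all genes tested were 33.9% higher and 14.4% lower, against which the lists below are also read. Dlk1, a Notch-like protein of the paternal Dlk1-Dio3 allele, had 38.8 and 42.9 TPM in Phc1 KO, 2.14 and 1.77 TPM in Phc1-SAM KO and 0.818 and 0.777 TPM in WT (log2 difference 3.82, SE 0.10, adjusted p = 9.13e-07). Igf2r, the maternally expressed receptor that clears Igf2, had 60.8 and 60.2 TPM in Phc1 KO, 14.7 and 13.9 TPM in Phc1-SAM KO and 11.1 and 9.11 TPM in WT (log2 difference 2.01, SE 0.06, adjusted p = 1.28e-06). Germline genes had 2 of 20 higher and 3 lower (median -0.10; 0 and 12 with quantile normalization, 7 and 2 with core pluripotency scaling; 1 higher without Phc1-SAM KO replicate 1 or 2), while 2-cell-like genes had 2 of 12 higher and 0 lower (median 0.07; 0 and 6 with quantile normalization), a count of 1 without Phc1 KO replicate 2 and 0 without any other ESC library. Of 5 Y-linked genes tested, 3 were higher and 1 lower. The Y-linked list summed to 24.35 and 25.34 TPM in Phc1 KO and 9.857 and 13.31 TPM in Phc1-SAM KO. In WT it summed to 3.6 and 3.016 TPM, with 0 members at a mean of 1 TPM. The cause of these low levels in a male line was not tested. Eif2s3y, a translation factor subunit of the Y chromosome, had 14 and 15.8 TPM in Phc1 KO, 2.04 and 5.15 TPM in Phc1-SAM KO and 0.422 and 0.447 TPM in WT (log2 difference 1.88, SE 0.28, adjusted p = 0.00167), with the 2 Phc1-SAM KO libraries apart from each other. Uba1y, a ubiquitin-activating enzyme, had 1.33 and 1.22 TPM in Phc1 KO, 3.14 and 3.66 TPM in Phc1-SAM KO and 0.689 and 0.584 TPM in WT (log2 difference -0.95, SE 0.14, adjusted p = 0.00132). Both have close relatives on the X chromosome that can share reads. Median differences by chromosome lay between 0.06 on chromosome 11 and 0.24 on chromosome 5 among the autosomes and X, and the median was 0.45 over the 8 tested genes of the Y chromosome.

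The same genotypes were then compared after differentiation, which shares no library with the ESC comparison. In NPC, 593 of the 14388 genes were called (4.12%), 375 higher and 218 lower in Phc1 KO, and 36 at 2-fold or more. The difference between the ESC and the NPC contrast, tested in the same fit, was called for 5025 genes (34.9%). Of the 1416 genes called at 2-fold in ESC, 1305 had a called difference between the stages. These genes were taken for their large ESC difference, which is part of the stage difference, so that count was largely set by the choice. In NPC, 43 of the 1416 were called in the same direction and 26 in the opposite one. Their NPC difference was under 0.5 in size for 1266, a count that was not made over all genes and so does not set these genes apart.

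The fibroblast and feeder list, with 14 of 14 higher in ESC, had 2 higher and 0 lower in NPC, with a median of -0.03 and a sum of 752.1 and 783.7 TPM in Phc1 KO against 573.6 and 545.6 TPM in Phc1-SAM KO. The 2 called in NPC were Vim and Fn1, and S100a4 was listed at 0 in all 4 NPC libraries. Among the 15 genes highest in Phc1 KO ESC, Ptn, a heparin-binding growth factor, was also higher in NPC, at 92.1 and 93.3 TPM in Phc1 KO NPC and 38.7 and 40.1 TPM in Phc1-SAM KO NPC (log2 difference 1.21, adjusted p = 0.00106), after 38.4 and 39.0 TPM and 0.691 and 0.909 TPM in ESC. Prl2c2 was lower in Phc1 KO NPC (log2 difference -1.87, adjusted p = 0.000972), being listed at 0 in both Phc1 KO NPC libraries and at 2.68 and 2.64 TPM in Phc1-SAM KO NPC. Among the PRC1 genes, Phc2 had 96.2 and 99.7 TPM and 97.3 and 93.5 TPM in NPC (difference 0.04). Bmi1 had 51.9 and 42.4 TPM and 46.5 and 49.4 TPM (difference -0.03). Hoxa9, lower in Phc1 KO ESC, had 49.7 and 51.0 TPM and 40.9 and 43.3 TPM in NPC (difference 0.25). Hoxd13 was lower in Phc1 KO at both stages, with 1.19 and 1.51 TPM against 3.44 and 3.99 TPM in NPC (difference -1.0, adjusted p = 0.0121). Core pluripotency genes, 9 of 10 lower in Phc1 KO ESC, had 5 higher and 0 lower in NPC (median 0.28), and endoderm genes, 7 of 13 higher in ESC, had 0 higher and 9 lower (median -0.70).

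**Figure D5:**
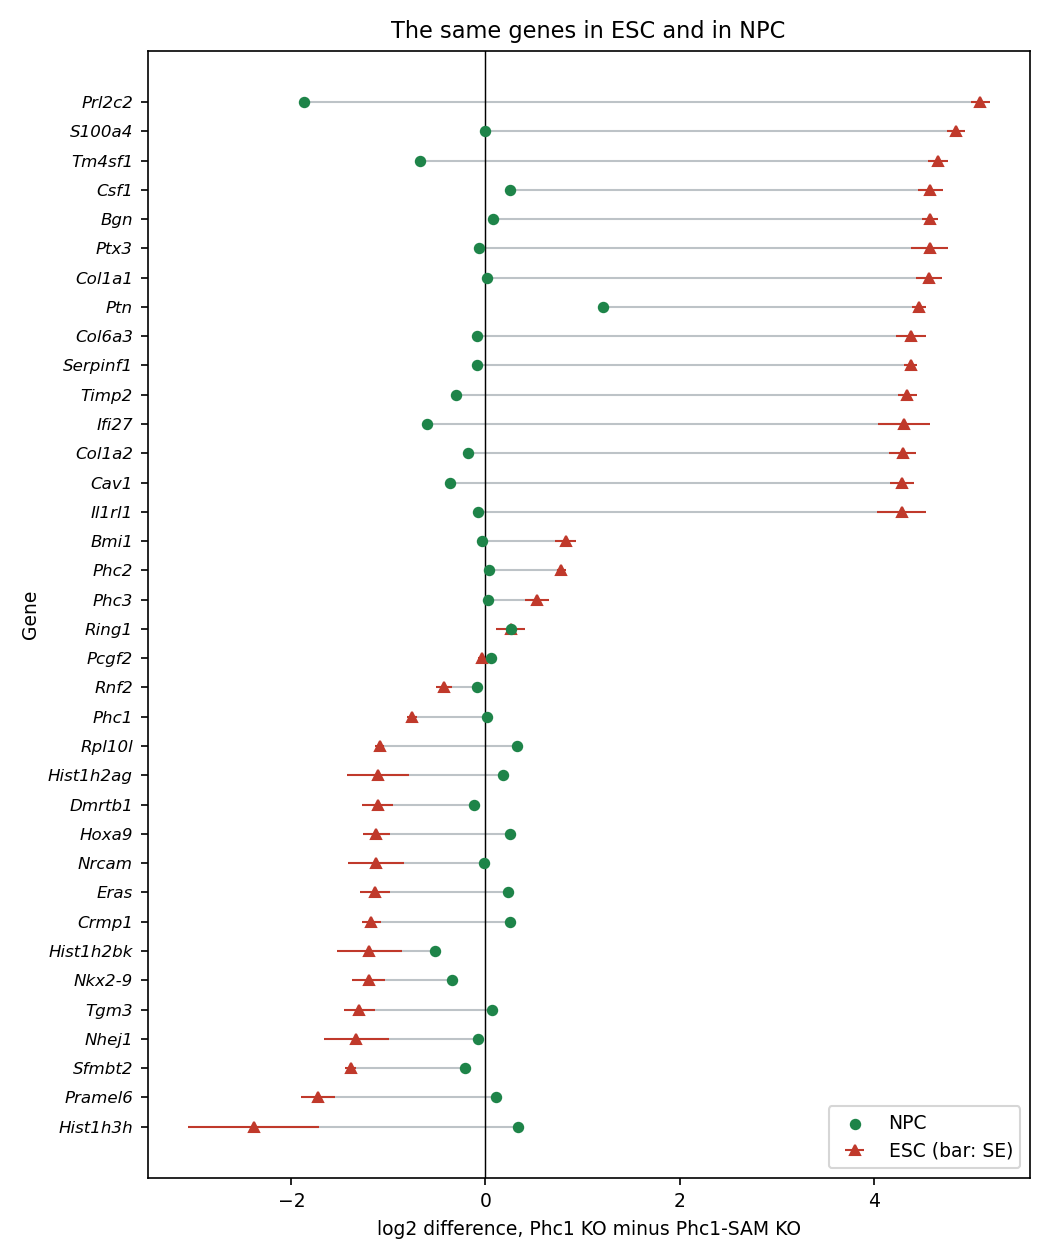
Log2 difference of Phc1 KO minus Phc1-SAM KO in ESC (triangles, with SE) and in NPC (circles) for the 15 higher genes, the 14 lower genes and the 7 Polycomb genes named. The 15 higher genes lie between 4.29 and 5.10 in ESC and at 1.21 or less in NPC.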

How the data were processed

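RNA-seq values of 8 knock-out libraries, 2 each of Phc1 KO and Phc1-SAM KO as ESC and NPC, were taken from the second of 2 deposited tables, and WT ESC levels from the first. The authors deposited TPM per gene; kallisto and mm10 are named in the submitters' processing notes. The depth is unknown because TPM hold no counts, and no counting interval is given. Another 4 columns, labelled WT in the second table, were left out because they sum to far less than the others. Genes with at least 1 TPM in 2 of the 4 ESC libraries were tested on log2(TPM + 1) by two-sided limma (version 3.58.1, trend in eBayes, run under R 4.3.3). The 8 libraries in 4 groups shared 1 estimate of the spread, with 4 residual degrees of freedom. The fit was also run on simulated data, drawn independently around group means with the spread of each gene. That run cannot check the choice of scaling, and its outcome is not used here. P values were adjusted by Benjamini-Hochberg over all 14388 genes. Named were 7 Polycomb genes, the 15 largest called differences in each direction without overlap and with 5 TPM in 1 group, and up to 4 called members of each list with 1 TPM. Results of 2 genes are not reported here. The members and lists were chosen with earlier results of these data known. Alternatives were a pseudocount of 0.1, other filters, median-of-ratios and quantile scaling, the ESC libraries alone, a replicate block and leaving out each ESC library. Core pluripotency scaling, which divides each ESC library by the geometric mean of the 10 core genes, was added after seeing the data. Promoter windows and positions are RefSeq, GRCm38.p6.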

Additional observations from a re-analysis of the deposited data

Results flagged for a closer look

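The ESC and NPC contrasts of Phc1 KO against Phc1-SAM KO differed, by the test of the difference itself, for 5025 genes. Among the genes fixed for naming, the ESC difference minus the NPC difference was -0.77 on the log2 scale for Phc1, 0.75 for its paralogue Phc2 and 0.86 for Bmi1. Of the 5 genes with the largest positive ESC difference, it was 6.97 for Prl2c2, 4.85 for S100a4, 5.34 for Tm4sf1, 4.33 for Csf1 and 4.50 for Bgn. Among those with the largest negative one, it was -1.84 for Pramel6 and -1.17 for Sfmbt2, and it did not pass the threshold for Hist1h3h and Nhej1. The genes outside the Polycomb set were taken for their large ESC differences, so their stage differences are large in part through that choice, and S100a4, at 0 TPM in all 4 NPC libraries, repeats its ESC difference. All groups had 2 libraries, so no library could be tested as an outlier within its group.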

How the results depend on the processing

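With 2 libraries per group and unknown depth, the sizes of large differences are better supported than the side of small ones. The count of 6948 called genes became 11299 with core pluripotency scaling. The 4882 higher genes became 3230 with median-of-ratios scaling, 2865 with quantile normalization and 11146 with core pluripotency scaling, and the 2066 lower genes 4237, 4015 and 153. The 1416 genes at 2-fold became 932 with a filter of 5 TPM and 3052 with core pluripotency scaling. Leaving out single ESC libraries gave 5535 to 5897 called, 4031 to 4185 higher, 1504 to 1726 lower, 1424 to 1479 at 2-fold and 4098 to 4481 with a stage difference. Of 186 genes, core pluripotency scaling reversed the sign of Bub1b (0.147), Cdc20 (0.0887), Ctcf (0.146), Gbx2 (0.0341), Pcgf2 (0.458), Rbbp4 (0.0713), Rnf2 (0.0726), Rpl14 (0.0751), Wapl (0.111), Zfp42 (0.0676), Esrrb (0.0872) and Klf4 (0.446), and quantile normalization that of Zscan4b (-0.0744). The other settings reversed 0. After the change of sign, Gbx2 (adjusted p = 0.843), Rnf2 (0.435), Wapl (0.186), Rbbp4 (0.163), Zfp42 (0.0549) and Zscan4b (0.619) did not pass the threshold. Pcgf2 was not called as deposited, so it had no call to reverse. By construction, core pluripotency scaling moves differences upward. The replicate numbers did not pair the samples (correlation of deviations -0.0483 in ESC), and a replicate block gave 6295 called genes, 4476 higher and 1819 lower.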
